A study of Homo sapiens with 6 samples.

Results

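The BCL2 family, the caspases and the inhibitors of apoptosis were examined as 35 genes of the cell death machinery, taken by gene symbol from a count table of 19202 genes. All 35 were in the table, and 30 of them passed the filter on low counts, as did 10804 genes in all. RNA was sequenced from MHCC97H cells resistant to sorafenib and from control MHCC97H cells labelled as sensitive to it, with 3 libraries in each group. MHCC97H is a line of human liver cancer cells, and sorafenib is a kinase inhibitor given in advanced liver cancer. No genotype or agent other than the resistant or sensitive phenotype is labelled. The sources used here do not say how resistance was raised, whether the resistant cells were 1 clone, or whether the drug was present at harvest.

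Apoptosis through mitochondria is set by the BCL2 family. Pro-survival members such as MCL1 and BCL2L1 (BCL-XL) hold the pore formers BAX and BAK1 in check, and the BH3-only members, BCL2L11 (BIM) and PMAIP1 (NOXA) among them, bind and block the pro-survival members. Once the outer membrane is open, cytochrome c and APAF1 activate CASP9 and the caspases downstream of it, while XIAP blocks caspases and DIABLO and HTRA2 relieve that block. Death receptors act through FADD and CASP8, which CFLAR holds back, and RIPK1, RIPK3 and MLKL carry necroptosis. In hepatocellular carcinoma, loss of MCL1 protein is a known effect of acute sorafenib treatment.

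Library totals were 3745068 to 4961907 counts in resistant cells and 1913469 to 5345272 counts in control cells. Levels (CPM) are counts scaled to a common library size with TMM factors, and log2 fold changes are resistant over control with their standard error (SE). The labels do not say that replicates were separate cultures, so the spread behind each p-value is that between libraries and may be technical. Among counts of 1 to 20, 81.8 to 88.5% were even, so errors based on counting alone are too small. The labelled cell type was checked on marker genes. The hepatocyte regulator HNF4A was at 36.0 to 44.9 CPM in resistant and 38 to 41.8 CPM in control libraries, and APOA1 and TTR were at or near 0. Of the epithelial markers, KRT8 was at 1010 CPM or more in each library and EPCAM at 0 to 0.818 CPM in resistant and 0.377 to 5.14 CPM in control libraries. CDH1 was lower in resistant cells (log2 fold change -1.13, edgeR adjusted p = 0.0219). ALB was at 1.62 to 8.39 CPM in resistant and 13.4 to 20.8 CPM in control libraries. Of the 6 tested hepatocyte markers 3 were lower and 0 higher, beside 12.3% lower and 11.7% higher over all tested genes. The hepatocyte markers summed to 67.7 to 87.7 CPM in resistant and 105 to 119 CPM in control libraries. Resistant replicate 3 stood apart in VWF (26.2 CPM), CDH5 (19.2 CPM) and TEK (3.27 CPM), against at most 1.76, 3.09 and 0.47 CPM in every other library. It did not in PECAM1, the other endothelial marker. PECAM1 was at 6.5, 12.9 and 41.7 CPM in resistant and 43.2, 30.9 and 24.9 CPM in control replicates 1 to 3. The summed endothelial markers ran from 7.58 to 90.4 CPM in resistant and from 29 to 46.3 CPM in control libraries. Summed immune markers were at 5.93 to 7.31 CPM in resistant and 4.9 to 9.09 CPM in control libraries, and summed fibroblast markers at 11.8 to 41.1 CPM in resistant and 14.9 to 36.7 CPM in control libraries. Resistant replicate 3 was also the highest library in COL1A1, COL1A2, COL3A1, DCN and PDGFRB, but not in LUM. It stood apart most in COL1A2, at 13.9 CPM against at most 4.11 CPM in every other library. The part of these markers in the results was not tested, and values without resistant replicate 3 stand beside the calls of members.

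MCL1, BCL2L11, BIRC5, XIAP and BCL2L13 fell in resistant cells and BCL2L1 rose, at an adjusted p under 0.05 in edgeR's quasi-likelihood test. Of the 30 tested members 6 were thus called, against 24.1% of all tested genes called either way. The 1 higher member stood against a background of 11.7% called higher, and the 5 lower members against 12.3% called lower, so the share of members called was near that of the transcriptome. The resistant and control libraries did not overlap for 13 of the 30 members, 5 higher and 8 lower in resistant cells, or 43.3% against 38.1% of all tested genes. The median log2 fold change over the 30 members was -0.21, with 11 above 0, against -0.006 over all tested genes. Without resistant replicate 3 the calls were 0 higher and 4 lower (MCL1, BCL2L11, BIRC5 and XIAP). In that fit 1079 genes were called higher and 1082 lower of 11034 tested. In these bulk libraries, fewer cells in a given state and less RNA per cell cannot be told apart. The drop in the summed level lay mostly in MCL1. All 35 members summed to 1850 to 1910 CPM in resistant libraries and 2230 to 2270 CPM in control libraries, and without MCL1 to 1390 to 1430 CPM in resistant and 1470 to 1490 CPM in control libraries.

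**Figure D1:**
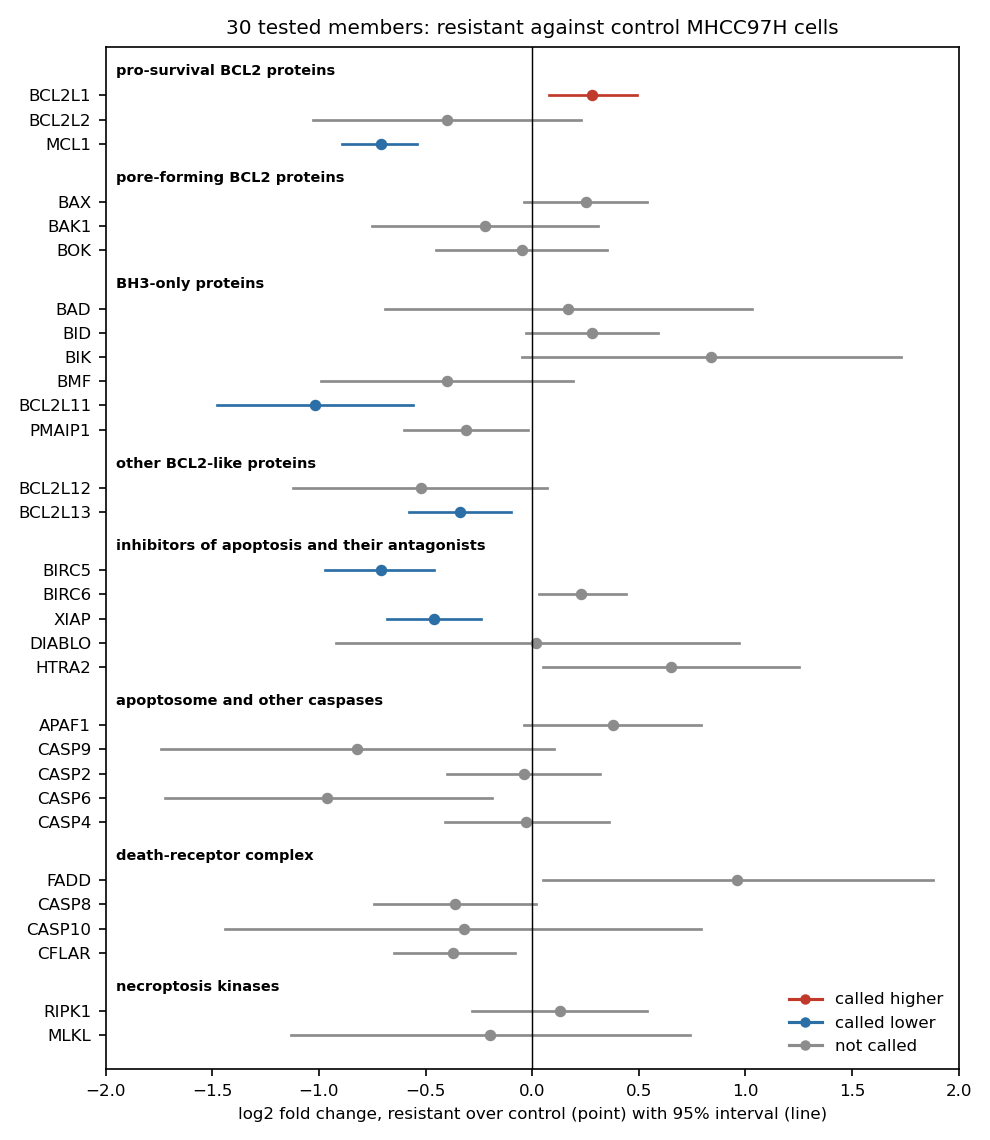
Log2 fold change of the 30 tested members, resistant over control (x axis), grouped by role, with the point for the estimate and the line for its 95% interval (n = 3 libraries each). BCL2L1 is the single member called higher (red), and MCL1, BCL2L11, BCL2L13, BIRC5 and XIAP are called lower (blue). The widest intervals belong to members of low count such as CASP10.

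Among the pro-survival members, MCL1 and BCL2L1 moved in opposite directions. MCL1, a short-lived protein that binds BCL2L11, PMAIP1 and BAK1, was at 431, 487 and 489 CPM in resistant replicates 1 to 3 and at 737, 801 and 769 CPM in control replicates 1 to 3. Every resistant library lay far below every control library. The log2 fold change was -0.71 (SE 0.09), 0.61 of the control level (edgeR's quasi-likelihood test, adjusted p = 5.55e-08). MCL1 ranked 113 by p among the 10804 genes. BCL2L1, the partner that sequesters BAX, BAK1 and BAD, was at 238, 196 and 210 CPM in resistant replicates 1 to 3 and at 174, 177 and 176 CPM in control replicates 1 to 3. Control libraries lay within a few CPM of each other and the resistant libraries were all higher, resistant replicate 1 the most. BCL2L1 had a log2 fold change of 0.28 (SE 0.10; edgeR's quasi-likelihood test, adjusted p = 0.0376). That call held in 8 of 16 alternatives. It was lost without resistant replicate 1 (0.22, edgeR adjusted p = 0.161), resistant replicate 3 (0.31, 0.0666), control replicate 1 (0.29, 0.073), control replicate 2 (0.29, 0.0816) or control replicate 3 (0.30, 0.088), and with a replicate block (0.0541). MCL1 was called lower in all 16, with log2 fold changes from -0.74 to -0.65, and at -0.73 (edgeR adjusted p = 4.67e-07) without resistant replicate 3.

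The balance of the MCL1 and BCL2L1 counts therefore differed between the groups. There were 1.81, 2.48 and 2.33 MCL1 counts for each BCL2L1 count in resistant replicates 1 to 3, and 4.23, 4.52 and 4.37 in control replicates 1 to 3. The ratio of BAX to MCL1 counts was 0.151, 0.146 and 0.172 in resistant replicates 1 to 3 and 0.074, 0.0814 and 0.0839 in control replicates 1 to 3, again without overlap. PMAIP1 to MCL1 was 0.109 to 0.146 in resistant and 0.0865 to 0.104 in control libraries. For BCL2L11 to MCL1 the groups overlapped, at 0.028 to 0.0446 in resistant and 0.0346 to 0.0572 in control libraries. These ratios were chosen after values were seen and carry no test.

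The other pro-survival members were scarce. BCL2L2 (BCL-W) averaged 11.9 ± 4.59 CPM in resistant and 15.9 ± 4.63 CPM in control cells (SD, n = 3 each) and overlapped between groups. It shares sequence with the readthrough gene BCL2L2-PABPN1, so its count is uncertain. BCL2, the founding member, had 6, 12 and 18 counts in resistant and 0, 10 and 6 counts in control replicates 1 to 3. BCL2A1, an NF-kappa-B target, had 0, 0 and 2 counts in resistant and 0, 3 and 2 counts in control replicates 1 to 3. Neither passed the filter, and a count of 0 allows up to 3 counts in a library, for counting error only and if counts are independent. Most small counts were even, so that limit is too low here.

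Among the 34 members with a length, MCL1 and BCL2L1 were the most abundant per kilobase of the longest coding transcript. MCL1 was at 119 ± 8.38 CPM per kb in resistant and 196 ± 8.13 CPM per kb in control cells, and BCL2L1 at 82.2 ± 8.12 CPM per kb in resistant and 67.4 ± 0.561 CPM per kb in control cells (SD, n = 3 each). BAX came next, at 54.1 ± 7.11 CPM per kb in resistant and 45.2 ± 4.41 CPM per kb in control cells, with BIRC5 at 27.4 ± 0.968 CPM per kb in resistant and 44.8 ± 5.72 CPM per kb in control cells. In control cells BAX and BIRC5 did not differ beyond their spread, nor in resistant cells did BIRC5, PMAIP1 (31.2 ± 3.7) and BID (28.8 ± 6.57). CASP9, CASP10, CASP1, BCL2, BCL2A1, HRK and RIPK3 were at the low end, at or under 1.82 CPM per kb in either group's mean. The order depends on the transcript length taken. With the median length of coding transcripts, BCL2L1 (235 CPM per kb) and BAX (136) were above MCL1 (129) in resistant cells, and MCL1 (212) was above BCL2L1 (192) in control cells. CFLAR then moved up to 45.2 CPM per kb in resistant and 58.5 CPM per kb in control cells, against 3.74 and 4.84 CPM per kb in resistant and control cells with the longest transcript.

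**Figure D2:**
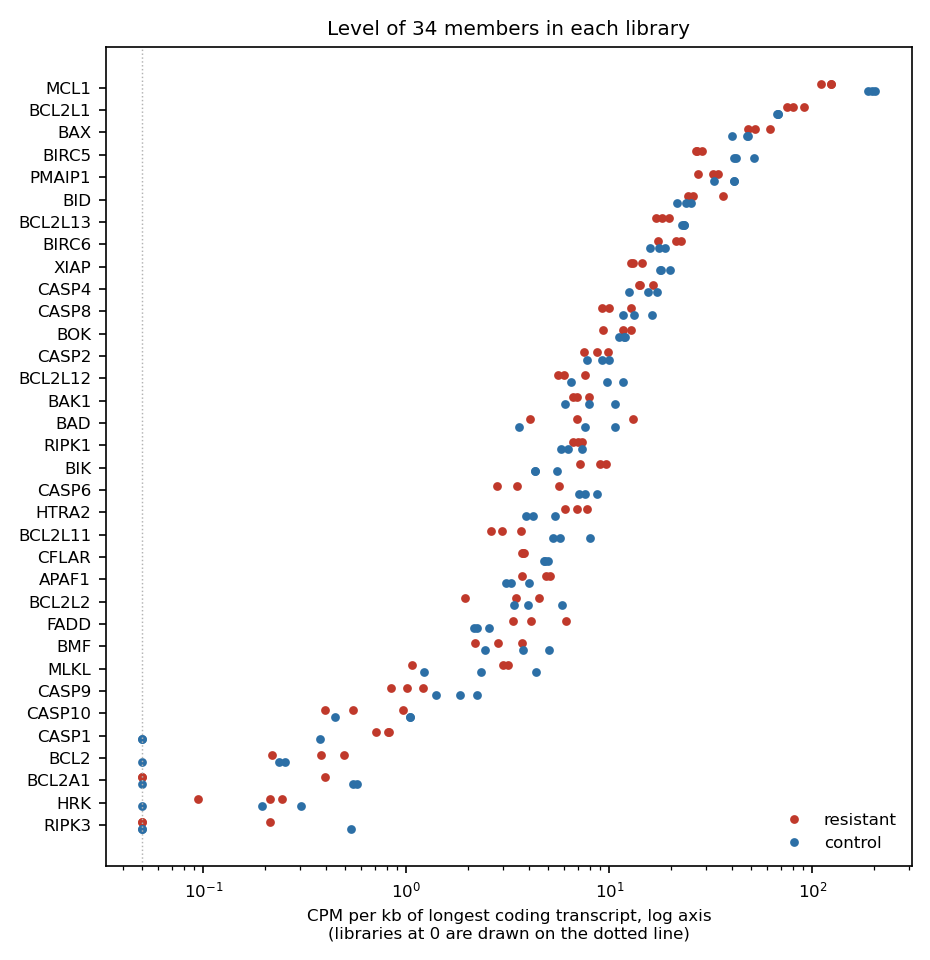
Level of 34 members in each library, as CPM per kilobase of the longest coding transcript (log x axis; libraries at 0 on the dotted line), ordered by mean level, with resistant libraries in red and control libraries in blue. MCL1 and BCL2L1 head the order, and the 2 groups of points stand apart for MCL1, BCL2L1 and BIRC5 among the most abundant.

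Of the summed pro-survival level per kb, MCL1 made up 54.1, 61.1 and 59.2% in resistant replicates 1 to 3 and 72.6, 73.9 and 72.5% in control replicates 1 to 3. BCL2L1 made up 44.9, 37.0 and 38.2% in resistant and 25.9, 24.6 and 25.0% in control replicates 1 to 3. BCL2L2, BCL2 and BCL2A1 together filled the small remainder in every library. The sum of the 5 genes was 205 ± 4.22 CPM per kb in resistant and 268 ± 8.94 CPM per kb in control cells (SD, n = 3 each). Sum and shares depend on the transcript length taken. With the median length the sum was 386 CPM per kb in resistant and 433 CPM per kb in control cells, MCL1 made up 33.6% in resistant and 49.0% in control cells, and BCL2L1 60.8% in resistant and 44.5% in control cells.

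**Figure D3:**
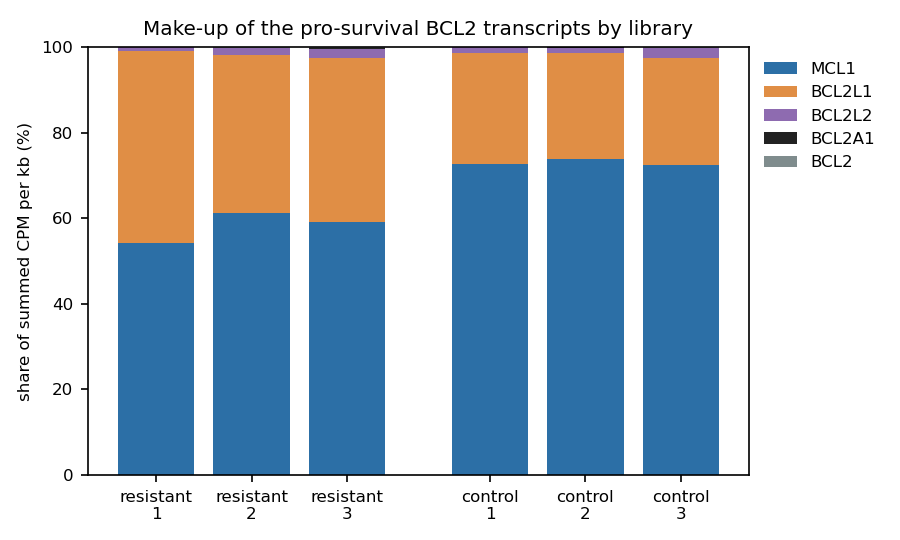
Share of each of 5 pro-survival BCL2 genes in their summed CPM per kb (y axis, percent), one stacked bar per library, resistant left of control. MCL1 takes 54.1 to 61.1% in resistant libraries and 72.5 to 73.9% in control libraries.

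In GENCODE 29 on GRCh38, MCL1 (Entrez 4170) spans 150574551 to 150579738 on the minus strand of chromosome 1. The sources used here do not name the build used for counting. Many of its neighbours had lower counts as well. Of 47 tested genes that start within 1 Mb of its start, 18 were called lower and 0 higher in edgeR's quasi-likelihood test, 44 had a log2 fold change below 0, and the median was -0.46. Within 2 Mb, 24 of 59 were lower, 0 were higher and the median was -0.47. The background over all tested genes was 12.3% lower with a median of -0.006. MCL1 at -0.71 lay below the median of its neighbours but inside their range of -1.30 to 1.53. Around the other called members the counts were mixed, with 0 higher and 2 lower of 10 within 1 Mb of BCL2L1, 0 and 1 of 4 for BCL2L11, 1 and 0 of 5 for BCL2L13, 2 and 2 of 15 for BIRC5, and 0 and 1 of 2 for XIAP. The neighbours were examined because lower genes around MCL1 were already known from earlier results of these data. The excess over the background is therefore a description and not a test. Whether the lower counts around MCL1 have 1 source was not tested.

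**Figure D4:**
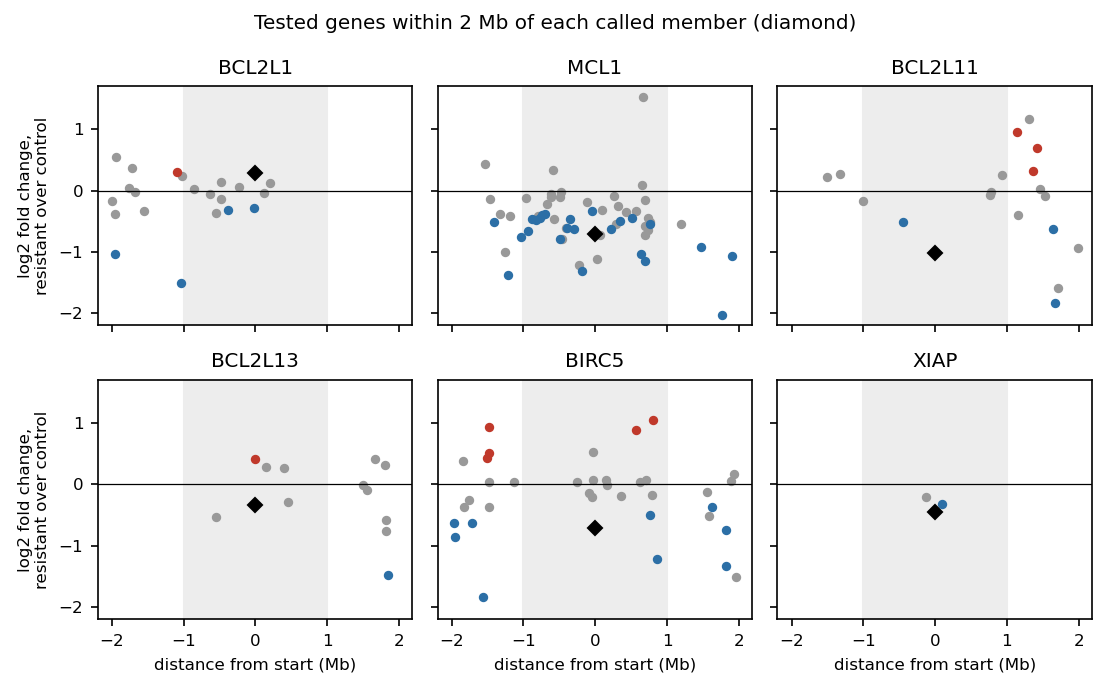
Log2 fold change, resistant over control (y axis), of tested genes within 2 Mb of each called member (diamond) against the distance between starts in Mb (x axis), red for called higher, blue for called lower, grey for not called, with 1 Mb on each side shaded. Around MCL1 the points lie mostly below 0, with 18 of 47 in the shaded range called lower, while the other panels show both signs or few genes.

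Among the BH3-only members, 1 of the 6 tested was called, BCL2L11. That is 16.7%, beside 24.1% of all tested genes called either way. BCL2L11 (BIM), an activator of BAX and BAK1 that also binds every pro-survival member, was at 19.2, 15.5 and 13.7 CPM in resistant replicates 1 to 3 and at 42.2, 27.7 and 29.9 CPM in control replicates 1 to 3. The groups did not overlap, and control replicate 1 was the highest library. It had the largest drop of the called members, a log2 fold change of -1.02 (SE 0.23; edgeR's quasi-likelihood test, adjusted p = 0.000897). Without control replicate 1 it was -0.83 (edgeR adjusted p = 0.0128), and without resistant replicate 3 -0.90 (0.00811). BCL2L11 (Entrez 10018) spans 111119378 to 111168447 on the plus strand of chromosome 2 in GENCODE 29, inside the non-coding gene MIR4435-2HG on the other strand. The sources used here do not say whether strand was used in counting. Where exons of these genes overlap, their reads may not be told apart, and exons were not compared.

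BCL2L11 is a textbook target of the forkhead factor FOXO3, so its promoter was searched for the forkhead core GTAAACA on both strands. Of 54 RefSeq promoter windows of 28 members, each the 250 bases before a start, 1 held it, that of BCL2L11, against 2.98% of 35116 windows of all genes. MCL1, BIRC5, BCL2L2, BIK, CASP1, CASP10 and RIPK3 were not searched. The window, chr2:111120664-111120913 on the plus strand of GRCh38.p14 (RefSeq), is shown because it is the member window with the match. The capitals mark the motif, whose first base lies 223 bases before the start.
BCL2L11 promoter: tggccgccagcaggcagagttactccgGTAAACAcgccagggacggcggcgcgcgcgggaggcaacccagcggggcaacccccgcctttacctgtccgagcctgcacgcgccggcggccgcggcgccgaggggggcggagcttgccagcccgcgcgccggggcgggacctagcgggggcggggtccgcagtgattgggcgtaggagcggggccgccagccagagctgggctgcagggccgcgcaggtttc
The match describes these letters and not a bound site. FOXO3 itself was at 119, 151 and 147 CPM in resistant and 97.7, 118 and 112 CPM in control replicates 1 to 3. It was called higher (log2 fold change 0.34, SE 0.12, edgeR adjusted p = 0.0300). FOXO1 was not called (0.01, edgeR adjusted p = 0.988). FOXO3 was named after its values were seen, and any link between its level and that of BCL2L11 was not tested.

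The other BH3-only members did not pass the test. PMAIP1 (NOXA), which binds MCL1 in particular, was at 62.8, 52.9 and 66.9 CPM in resistant and 63.8, 80.2 and 79.8 CPM in control replicates 1 to 3. Its groups overlapped through resistant replicate 3 and control replicate 1, and the log2 fold change was -0.31 (SE 0.14, edgeR adjusted p = 0.118). BID, which CASP8 cleaves to link death receptors with mitochondria, was at 90.7, 64.4 and 60.6 CPM in resistant and 53.5, 59.3 and 63.1 CPM in control replicates 1 to 3. Here 1 resistant library was high and the others were at the control level, for a log2 fold change of 0.28 (SE 0.15, edgeR adjusted p = 0.191). BIK, a BH3-only protein of the endoplasmic reticulum, averaged 8.2 ± 1.24 CPM in resistant and 4.5 ± 0.671 CPM in control cells (SD, n = 3 each) without overlap, yet with an edgeR adjusted p of 0.172. BMF, a BH3-only protein held at the cytoskeleton, and BAD, which phosphorylation by survival kinases keeps inactive, overlapped between groups, with log2 fold changes of -0.40 and 0.17. BAD lies opposite to GPR137 by span, with exons not compared, so its count may be uncertain. HRK had 2, 6 and 6 counts in resistant and 0, 6 and 6 in control replicates 1 to 3 and was not tested.

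None of the 3 pore-forming members was called, beside 24.1% of all tested genes called either way. BAX, which moves from the cytosol into the outer mitochondrial membrane, was at 65.2, 71.0 and 84.1 CPM in resistant and 54.5, 65.2 and 64.5 CPM in control replicates 1 to 3. The groups did not overlap, with the resistant libraries on top, though resistant replicate 1 and control replicate 2 differed by less than the rounding. The log2 fold change was 0.25 (SE 0.14, edgeR adjusted p = 0.218). BAK1, which resides in that membrane, averaged 15.8 ± 1.57 CPM in resistant and 18.1 ± 5.08 CPM in control cells, and the less studied BOK 29.8 ± 4.69 CPM in resistant and 30.8 ± 1.25 CPM in control cells (SD, n = 3 each). For these 2 genes the 95% interval of the log2 fold change ran from -0.75 to 0.31 and from -0.45 to 0.35. BAK1 has processed pseudogenes that could share its reads.

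Of the 2 other BCL2-like members, BCL2L13 was called, beside 24.1% of all tested genes called either way. BCL2L13, an outer mitochondrial membrane protein that acts as a receptor for mitophagy, was at 99.9, 92.2 and 85.9 CPM in resistant replicates 1 to 3 and at 115, 118 and 118 CPM in control replicates 1 to 3. All resistant libraries lay below the closely spaced control libraries. Its log2 fold change was -0.34 (SE 0.12, edgeR adjusted p = 0.0294). The call held in 9 of 16 alternatives and was lost without resistant replicate 2 (-0.33, edgeR adjusted p = 0.0856), resistant replicate 3 (-0.28, 0.166), control replicate 1 (-0.35, 0.0545), control replicate 2 (-0.34, 0.0737) or control replicate 3 (-0.33, 0.0941). BCL2L12 overlapped, with 11.8 ± 2.02 CPM in resistant and 17.2 ± 4.84 CPM in control cells (SD, n = 3 each, edgeR adjusted p = 0.205). BCL2L13 (Entrez 23786) spans 17628855 to 17730855 on the plus strand of chromosome 22, and BCL2L1 (Entrez 598) spans 31664452 to 31723989 on the minus strand of chromosome 20. The antisense genes AL117381.1 and ABALON overlap the span of BCL2L1 on the opposite strand. With the strand setting unknown, its count could hold their reads, which was not tested.

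**Figure D5:**
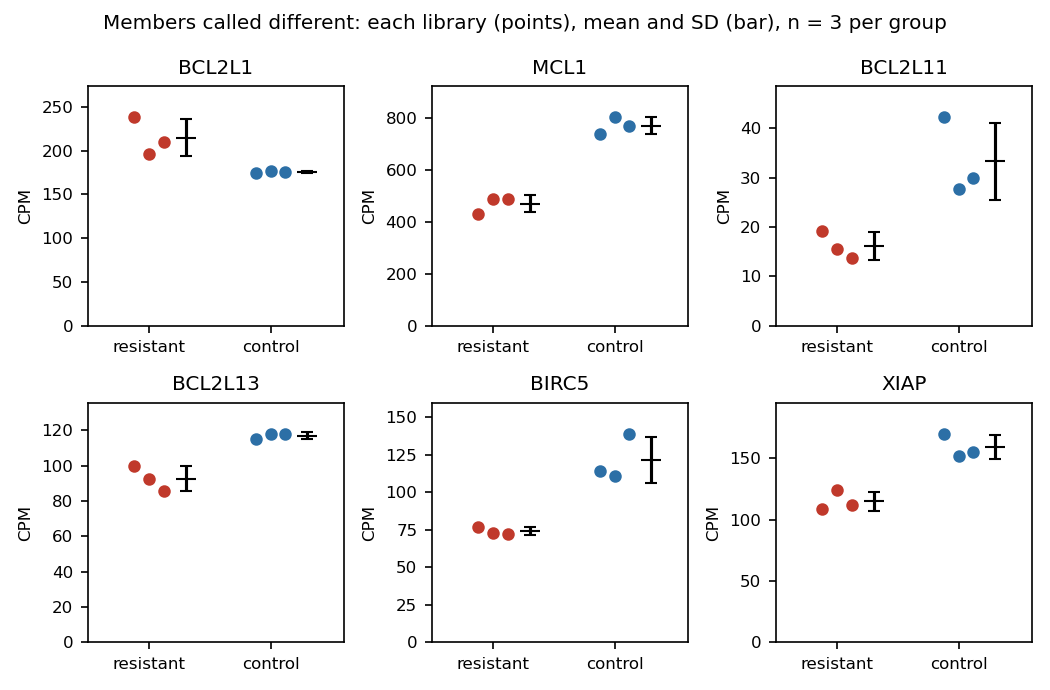
CPM (y axis) of the 6 called members in each library (points, replicates 1 to 3 from left to right), with the mean and SD beside them, resistant left of control, n = 3 each. The groups do not overlap in any panel, and BCL2L1 is the panel with the resistant libraries on top.

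Of the 5 inhibitors of apoptosis and their antagonists, 2 fell and 0 rose, beside 12.3% lower and 11.7% higher over all tested genes. BIRC5 (survivin), a member of this family that also serves the chromosomal passenger complex in mitosis, was at 77.1, 73.1 and 72.2 CPM in resistant replicates 1 to 3 and at 114, 111 and 139 CPM in control replicates 1 to 3. Resistant libraries were close together and well below the control libraries, of which replicate 3 was the highest. The log2 fold change was -0.71 (SE 0.12; edgeR's quasi-likelihood test, adjusted p = 3.18e-05), and -0.68 (0.000442) without resistant replicate 3. BIRC5 is expressed in dividing cells, and of 12 other mitosis genes 7 were called lower and 0 higher (12.3% and 11.7% over all tested genes), TOP2A at -0.90 (edgeR adjusted p = 9.81e-09) and CENPF at -0.61 (3.42e-06) among them. The other genes of the passenger complex were not called, with AURKB at -0.27 (edgeR adjusted p = 0.294), CDCA8 at -0.14 (0.586) and INCENP near 0 (0.988), and CDK1 was at 0.28 (0.094). The 12 summed to 1250 to 1290 CPM in resistant and 1680 to 1940 CPM in control libraries. Their part in the lower BIRC5 was not tested.

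XIAP, a direct inhibitor of caspases, was at 109, 124 and 112 CPM in resistant replicates 1 to 3 and at 170, 152 and 155 CPM in control replicates 1 to 3. Each resistant library was lower than each control library. It had a log2 fold change of -0.46 (SE 0.11, edgeR adjusted p = 0.00176), and -0.43 (0.0148) without resistant replicate 3. XIAP (Entrez 331) spans 123859724 to 123913979 on the plus strand of chromosome X, and BIRC5 (Entrez 332) spans 78214186 to 78225636 on the plus strand of chromosome 17. Processed pseudogenes of XIAP on other chromosomes could take up or give reads, and XIAP-AS1 overlaps its span on the opposite strand.

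BIRC6, a very large member of the family that is also a ubiquitin ligase, was at 271, 354 and 334 CPM in resistant and 295, 276 and 248 CPM in control replicates 1 to 3. Resistant replicate 1 lay among the control libraries and the other resistant libraries above them. With all libraries the log2 fold change was 0.23 (SE 0.10, edgeR adjusted p = 0.0941), and without resistant replicate 1 it was 0.35 (0.00962). HTRA2, a mitochondrial protease that cleaves inhibitors of apoptosis, averaged 16.4 ± 2.04 CPM in resistant and 10.7 ± 1.91 CPM in control cells without overlap (SD, n = 3 each, edgeR adjusted p = 0.112). DIABLO (SMAC), the mitochondrial antagonist of XIAP, averaged 6 ± 2.49 CPM in resistant and 5.83 ± 1.81 CPM in control cells, with a 95% interval of the log2 fold change from -0.92 to 0.97, so its direction is not set. HTRA2 overlaps other genes on the opposite strand. DIABLO overlaps one on the opposite strand and, on its own strand, the protein-coding gene AC048338.1 and another annotated entry of the same symbol, so its count is uncertain whatever the strand setting.

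No caspase among the members was called, nor was APAF1 of the apoptosome, beside 24.1% of all tested genes called either way. CASP6, an effector caspase that cleaves lamins, was at 5.41, 8.70 and 4.30 CPM in resistant and 13.4, 10.9 and 11.7 CPM in control replicates 1 to 3. The groups did not overlap, with a log2 fold change of -0.96 (SE 0.38) and an edgeR adjusted p of 0.0605. Without resistant replicate 2, the highest of the resistant libraries, CASP6 passed at -1.29 (0.0354). With all libraries it passed in limma-voom at -0.99 (limma-voom adjusted p = 0.0403), and it did not pass in the other alternatives. CASP9, the initiator activated on APAF1, averaged 4.56 ± 0.828 CPM in resistant and 8.14 ± 1.88 CPM in control cells (SD, n = 3 each), again without overlap and short of the threshold (edgeR adjusted p = 0.197). APAF1 averaged 32.2 ± 5.25 CPM in resistant and 24.4 ± 3.54 CPM in control cells, with overlap and an edgeR adjusted p of 0.193. CASP2, an initiator engaged after chromosome damage, and CASP4, a sensor of intracellular lipopolysaccharide, had log2 fold changes of -0.04 and -0.03, with intervals from -0.40 to 0.32 and from -0.41 to 0.36. CASP1, the inflammasome caspase, was not tested, with 6, 6 and 8 counts in resistant and 0, 4 and 0 counts in control replicates 1 to 3.

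None of the 4 members of the death-receptor complex was called, nor were the 2 tested necroptosis members. Over all tested genes 24.1% were called either way. CFLAR (c-FLIP), which blocks CASP8 at the receptor, was at 54.1, 55.0 and 55.6 CPM in resistant and 73.0, 70.2 and 69.8 CPM in control replicates 1 to 3. Libraries were tight within both groups and clearly apart between them. The log2 fold change was -0.37 (SE 0.14) with an edgeR adjusted p of 0.0525, which passed with upper-quartile scaling, library totals and halved counts (lowest 0.0399). FADD, the adaptor that brings CASP8 to the receptors, averaged 8.33 ± 2.66 CPM in resistant and 4.25 ± 0.389 CPM in control cells without overlap (SD, n = 3 each, edgeR adjusted p = 0.121). CASP8, the initiator of this route, averaged 31.2 ± 5.43 CPM in resistant and 40.1 ± 6.84 CPM in control cells, and its relative CASP10 3.78 ± 1.75 CPM in resistant and 4.99 ± 2.04 CPM in control cells (SD, n = 3 each). Both overlapped between groups, and the ratio of CASP8 to CFLAR counts did too, at 0.491 to 0.69 in resistant and 0.485 to 0.681 in control libraries. RIPK1, the kinase that links receptors to survival or necroptosis, averaged 29.1 ± 1.59 CPM in resistant and 26.9 ± 3.18 CPM in control cells (edgeR adjusted p = 0.696). MLKL, the executioner of necroptosis, overlapped at 2.71 to 7.99 CPM in resistant and 3.09 to 10.9 CPM in control libraries. RIPK3, which activates MLKL, had 2 counts over the resistant and 2 counts over the control libraries.

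Genes around these members gave the context, and their counts stand against 11.7% of all tested genes called higher and 12.3% called lower. Of 12 other core apoptosis genes that were tested and are reported here, 2 rose and 4 fell. The outer-membrane channel VDAC2 had a log2 fold change of 1.12 (edgeR adjusted p = 2.8e-10) and cytochrome c (CYCS) 0.63 (5.39e-06), while the BH3-only gene BBC3 (PUMA) was at -0.81 (0.0163) and VDAC1 at -0.34 (0.0256). Of 9 tested death receptors, ligands and adaptors, 1 rose and 3 fell. The TRAIL receptors stood on opposite sides, TNFRSF10A at 0.64 (edgeR adjusted p = 0.0023) and TNFRSF10B at -0.71 (8.81e-07), and the TNF receptor TNFRSF1A was at -0.72 (1.88e-06).

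Of 10 tested transcription factors known to act on BCL2 family genes, 3 rose and 2 fell, beside 11.7% higher and 12.3% lower over all tested genes. ATF4, the main factor of the integrated stress response, had a log2 fold change of 0.55 (edgeR adjusted p = 1.16e-05) and the NF-kappa-B subunit RELA 0.32 (0.0264). DDIT3 (CHOP), a stress factor known to raise BCL2L11, BBC3 and TNFRSF10B, was at -1.31 (edgeR adjusted p = 1.23e-08), and E2F1 at -1.03 (0.000523). The 3 targets were picked with their values known, and any link between their levels and that of DDIT3 was not tested. Of 9 genes that set the stability of BCL2 family proteins, the ubiquitin ligase subunit BTRC was higher at 0.93 (edgeR adjusted p = 9.52e-05) and the MCL1 ligase HUWE1 was lower at -0.29 (0.016). RNA levels do not give the levels of the proteins, which these genes also govern.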

How the data were processed

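Per the labels' protocols, Trizol and a column kit gave total RNA, and libraries followed the EasyRNA-seq protocol. Trimmomatic, HISAT2 and Bowtie2 are named in the submitters' processing notes, with no roles. The authors deposited raw counts per gene, as whole numbers. The sources used here do not name the counter, build, annotation or strand setting. Other members, CFLAR (CFLAR-AS1) and BAK1 (GGNBP1) among them, also overlap genes on the opposite strand by span. Groups and replicate numbers are from the sample titles.

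Genes were filtered with filterByExpr, scaled by TMM and tested on the counts by edgeR 4.0.16 in R 4.3.3 (glmQLFit and glmQLFTest), group as the only term, with Benjamini-Hochberg adjustment over 10804 genes and calls at 0.05. The SE is the log2 fold change over the square root of F. The script was tested on simulated data. Spans and transcript lengths are from GENCODE 29 (GRCh38), promoters from RefSeq. Values per library are given for called members and the 5 most abundant others, and for other lists the 2 genes of smallest p in each direction. Members, lists and the look at neighbours were chosen with earlier results of these data known. Some genes of the lists are not reported here. The 16 alternatives are other scalings, filters and thresholds, halved counts, a replicate block, DESeq2 1.42.0, limma-voom (limma 3.58.1) and leaving out each library. Figures were drawn with matplotlib 3.10.9.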

Additional observations from a re-analysis of the deposited data

How the results depend on the processing

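Over the 16 alternatives, MCL1, BCL2L11, BIRC5 and XIAP were called lower in each. At an adjusted p of 0.01, 800 genes were higher and 851 lower. Members called higher numbered 0 at 0.01, with library totals and with a replicate block, and 0 to 1 leaving out 1 library, where the 1 was BIRC6 without resistant replicate 1 and BCL2L1 without resistant replicate 2; members called lower numbered 4 to 6 throughout. Over all tested genes, 9937 to 17245 by setting, the alternatives called 800 to 1325 higher and 851 to 1432 lower. With the replicate block 1248 genes were higher and 1270 lower, and 5 members lower. Same-numbered libraries did not deviate together (correlations -0.015, 0.033 and -0.00648), so the numbers were not taken as pairs. Some members that did not pass the test changed sign. DIABLO was at -0.02 with halved counts, at -0.06 in limma-voom and at -0.32 to 0.33 leaving out 1 library. Leaving out 1 library gave -0.35 to 0.01 for BAK1, -0.14 to 0.09 for BOK, -0.35 to 0.63 for BAD, -0.13 to 0.07 for CASP2, -0.14 to 0.10 for CASP4 and -0.46 to 0.40 for MLKL. The cause was not tested. The direction of these members is not set. Depth limits the 5 members that were not tested.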
